A study of Drosophila melanogaster with 12 samples.

Results

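Binding of the insulator protein CP190 was compared between Kc167 cells that received double-stranded RNA against CP190 (dsCP190) and mock cells. The comparison used the 4 CP190 immunoprecipitations of a series of 12 samples, chosen by the antibody and treatment in their titles. Kc167 is a Drosophila melanogaster cell line of embryonic origin, labelled as female, and both groups came from this 1 line. Mock cells were nucleofected without RNA and dsCP190 cells with 12 µg of dsRNA, and both were grown for 6 days before fixation. Sheared chromatin of 200 to 500 bp was immunoprecipitated with a rabbit antibody against CP190 (5 µg). Each group held 2 replicates, and the labels do not say that they came from separate cultures, so p-values measure only the spread between these samples. The inputs and the CLAMP libraries of dsCP190 cells were not used here. Although the series-level design note mentions knockdown of CLAMP, the title and the sample labels give CP190 as the target, and they were followed. CP190 protein and RNA levels were not measured in these files, and peak lists hold no expression, so neither the depth of the knockdown nor the cell type could be checked against markers.

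CP190 is a zinc-finger protein with a BTB domain that is shared by several classes of Drosophila insulator. It is brought to DNA by sequence-specific proteins such as su(Hw), CTCF and BEAF-32, and it is found at many active promoters, often between closely spaced divergent genes. Insulators limit which enhancers reach which promoters, and CP190 is also known for its place at borders of chromosome domains. In an immunoprecipitation made with an antibody against the depleted protein, the signal at a site reports how much CP190 can still be recovered there. In chromatin from a whole culture, fewer cells with a bound site and less CP190 per cell cannot be told apart.

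CP190 peaks were fewer, narrower and less enriched after dsCP190, in each replicate, than in either mock library. The lists held 7669 and 7964 peaks on arms 2L, 2R, 3L, 3R, 4 and X in mock replicates 1 and 2, and 2047 and 3138 in dsCP190 replicates 1 and 2. Peaks covered 6334 and 6738 kb in mock and 1089 and 1993 kb in dsCP190, a ratio of group means of 0.236. The median peak was 741 and 759 bp wide in mock and 483 and 554.5 bp in dsCP190, a ratio of 0.692. All 3 measures separated the groups without overlap, and within the dsCP190 group replicate 1 had the lower value each time. The lists were called per sample, and the shortest peak was 297 or 298 bp wide in every list. Peak number averaged 7816.5 ± 209 (SD, n = 2) in mock and 2592.5 ± 771 (SD, n = 2) in dsCP190 cells. For each of these measures p was 0.333 in a two-sided exact permutation test, the smallest value that 2 libraries against 2 can give.

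**Figure D1:**
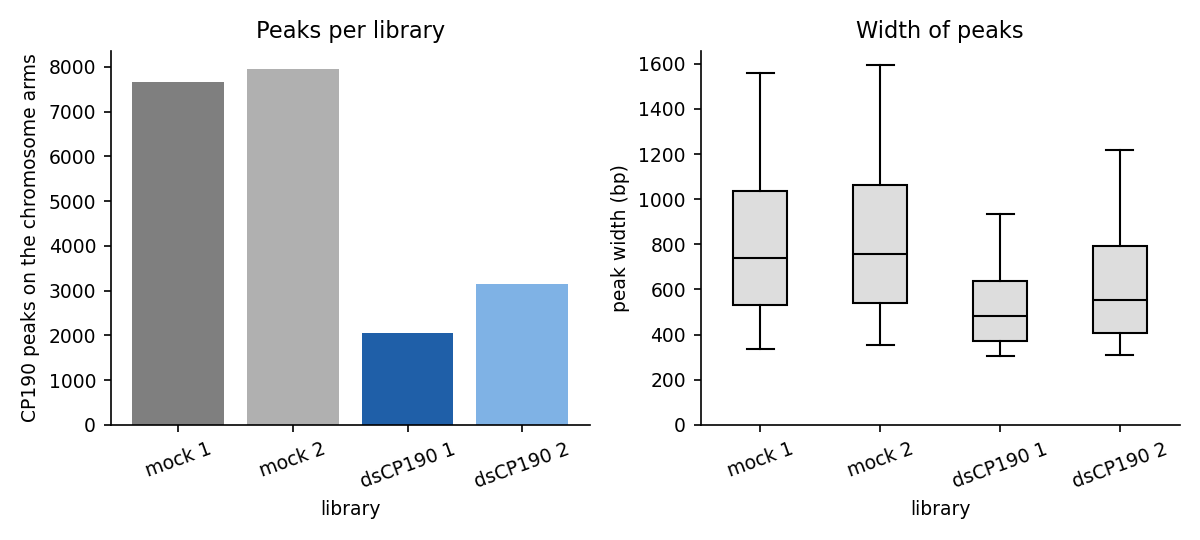
CP190 peaks on the chromosome arms (left) and their widths in bp (right) in the 4 libraries. Boxes give the median and quartiles and whiskers the 5th and 95th percentiles; the dsCP190 lists hold 2047 and 3138 peaks, against 7669 and 7964 in mock, and their median widths of 483 and 554.5 bp lie below both mock medians.

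The deposited fold and −log10 p of each peak together give the number of fragments stacked at its summit and the local background the peak caller set against it. Summit enrichment below is fragments divided by that background. The median peak had an enrichment of 8.85 and 8.15 in the mock libraries and of 4.19 and 5.31 in the dsCP190 libraries. The 5th percentile of enrichment was 3.01 and 2.80 in mock against 2.38 and 2.69 in dsCP190, so the weakest called peaks were similar in all lists. A region without a call in dsCP190 has no measured enrichment there, which is not the same as an enrichment of 0. Median fragments at the summit were 96 and 121 in mock against 44 and 43 in dsCP190.

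Peaks that overlapped by at least 1 bp were joined into 8363 regions over the 4 lists. Both mock libraries called 7356 of them, which are termed reproducible. Of these, 4295 (58.4%) were called in neither dsCP190 library and are termed lost, and 1661 (22.6%) were called in both and are termed kept. Another 1280 (17.4%) were called in dsCP190 replicate 2 only and 120 (1.63%) in replicate 1 only. Lost and kept describe the call alone. With a call in replicate 2 taken as enough, which leaves dsCP190 replicate 1 out, 2941 regions were kept. The lists differ in length: with every list reduced to its 2047 strongest peaks, 1834 regions were called in both mock lists, of which 1222 (66.6%) were kept and 306 (16.7%) were lost.

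The strongest regions at named genes that kept their call lay at Atet, an ABC transporter gene, lov, a BTB transcription factor gene, and bcd, the anterior determinant of the embryo. The Atet region, on 2L from 4345025 to 4346691, had the highest mean mock rank of any kept region with a named gene, with enrichments of 74.3 and 58.5 in mock against 20.7 and 53.8 in dsCP190. The bcd region, on 3R from 6759169 to 6760282, had 71.9 and 38.8 in mock against 9.05 and 24.7 in dsCP190. At lov enrichment was 60.7 and 46.6 in mock against 5.36 and 12.3 in dsCP190. At all 3 genes both dsCP190 values lay below both mock values, and replicate 1 lay below replicate 2. The log2 change was -2.71 at lov, beyond the 5th percentile of all kept regions (-2.48), and -0.98 at Atet. The next regions in rank lay at Pgant4, an O-glycosylation enzyme gene, and at Uhg5, a host gene of small nucleolar RNAs. At Pgant4 enrichment was 51.4 and 44.3 in mock against 7.65 and 19.0 in dsCP190. At Uhg5 it was 52.3 and 40.0 in mock against 25.2 and 37.9 in dsCP190, so its replicate 2 value came close to the lower mock value. Sytbeta, a synaptotagmin gene, betaTub60D, a beta-tubulin gene, and fal kept enrichments of 13.3 to 17.4 in replicate 1 and 20.0 to 27.6 in replicate 2, against 40.6 to 57.7 in mock.

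Sar1, a GTPase of vesicle budding, and PhKgamma, the catalytic subunit of phosphorylase kinase, were the exceptions among the first 10 kept genes. At Sar1, on 3R from 22355944 to 22357437, enrichment was 47.3 and 39.2 in mock against 23.0 and 45.3 in dsCP190. At PhKgamma, on X from 11694326 to 11695701, it was 50.1 and 40.1 in mock against 22.3 and 46.5 in dsCP190. In both cases dsCP190 replicate 2 lay between the mock values and replicate 1 below them, so the groups overlapped.

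Other strong mock regions, most of them weaker than the kept ones just named, lost their call. The first was at Set2, a histone H3 lysine 36 methyltransferase gene, on X from 13420684 to 13421771, with 387 and 450 fragments and enrichments of 49.1 and 40.0 in mock. The region at Mur11Da, a mucin-related gene, had 55.3 and 31.6 and was 2480 and 2205 bp wide. The Set2 values were close to those at Sar1, which was kept, and yet neither dsCP190 list called Set2. The 8 that followed lay at Gr98d, a gustatory receptor gene, Cpr62Ba, a cuticle protein gene, Ktch, SLO2, a potassium channel gene, MME1, a mitochondrial magnesium exporter gene, Ubx, a Hox gene, Spn77Ba, a serpin gene, and scaf, a serine protease homologue. Their enrichments ran from 28.3 to 37.1 in mock replicate 1 and from 25.7 to 30.9 in replicate 2. At Ubx, on 3R from 16655340 to 16656975, they were 31.2 and 26.0. None of these 10 regions overlapped a CLAMP region called in both mock libraries, and among the first 10 kept regions those at fal and Sar1 did. Over all lost regions the share with such an overlap was 12.2%, and over all kept ones 37.7%.

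Retention followed mock strength. The reproducible regions were split into deciles of their mean mock rank, from 1, the strongest, to 10. In decile 1, which holds Set2, Ubx, bcd and Atet, 83.0% of 736 regions (95% Wilson interval 80.1 to 85.6) were called in dsCP190 replicate 1 and 93.2% (91.2 to 94.8) in replicate 2. In decile 4 these shares were 22.7% and 62.6%, and in decile 6 they were 5.30% and 21.9%. In deciles 8 to 10 both replicates called between 2.04% and 3.67% of regions. The replicates were thus furthest apart in the middle of the range and alike at its weak end. Intervals cover counting error only, and regions of 1 library are not replicates of a condition. Of the 736 strongest regions, 608 were kept and 47 were lost, Set2 and Ubx among the latter. Enrichment in mock had a median of 33.1 and 28.2 in decile 1, of 12.7 and 12.0 in decile 4 and of 3.25 and 3.13 in decile 10.

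**Figure D2:**
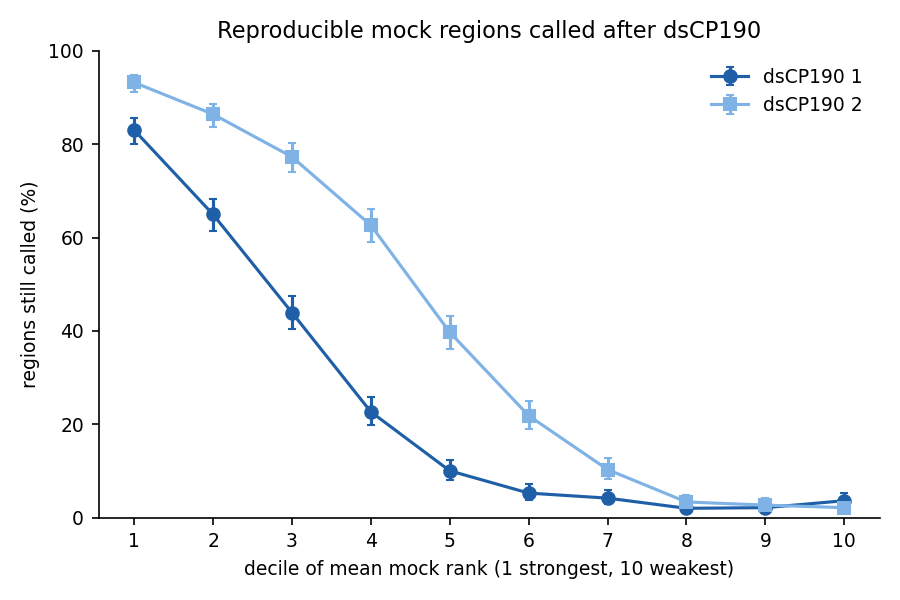
Share of reproducible mock regions still called in each dsCP190 library (y axis, %), by decile of the mean mock rank (x axis, 1 strongest). Bars are 95% Wilson intervals; the shares run from 83.0% and 93.2% in decile 1 to 3.67% and 2.17% in decile 10.

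The classes overlapped in mock strength. Lost regions had a median enrichment of 6.10 and 6.00 in the mock libraries and kept regions of 22.9 and 19.7. The 95th percentile of lost regions was 16.8 and 15.9, above the 5th percentile of kept regions, 10.1 and 9.40. Regions called in replicate 2 only lay in between, with 12.6 and 12.1. Median mock width followed the same order, at 591 and 621 bp for lost, 913.5 and 955.5 bp for replicate 2 only, and 1149 and 1184 bp for kept regions.

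Regions called in dsCP190 replicate 2 only included strong ones at Pde9, a cyclic GMP phosphodiesterase gene, axed, a gene of axon degeneration, Slob, whose product binds the potassium channel slowpoke, Duba, a deubiquitinase gene, and blo. At Pde9 enrichment was 37.8 and 34.1 in mock and 7.64 in dsCP190 replicate 2, where 57 fragments remained of 317 and 369. At axed it was 38.8 and 30.4 in mock and 3.91 in replicate 2. At Duba it was 35.6 and 30.8 in mock and 2.86 in replicate 2, close to the 5th percentile of that list. The 120 regions called in replicate 1 only were led by CheB93a, a chemosensory gene, tey and nvy. At CheB93a enrichment was 41.2 and 31.9 in mock and 3.71 in replicate 1. Median dsCP190 enrichment was 3.94 for the replicate 2 only class, against 12.6 and 12.1 in mock, and 2.96 for the replicate 1 only class, against 7.47 and 7.77 in mock.

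Kept regions were lower in dsCP190 almost throughout. Median enrichment at the 1661 kept regions was 22.9 and 19.7 in the mock libraries and 4.86 and 9.26 in the dsCP190 libraries, a ratio of group means of 0.331 (two-sided exact permutation p = 0.333, the smallest possible). Median fragments at their summits were 266 and 325 in mock against 50 and 76 in dsCP190, while the local background averaged 13.8 ± 3.03 (SD, n = 2) fragments in mock and 9.89 ± 1.56 (SD, n = 2) in dsCP190. The fragment number thus differed by more than the background did. In 1524 kept regions (91.8%) both dsCP190 enrichments lay below both mock enrichments, in 2 (0.12%) both lay above, and in 135 the groups overlapped. The median log2 change, the mean of the dsCP190 log2 values minus that of the mock values, was -1.64, with quartiles of -1.98 and -1.18. This is a median enrichment 3.11-fold lower. Set against the mean of the mock log2 values, it was 4.04-fold lower in dsCP190 replicate 1 and 2.31-fold lower in replicate 2, and replicate 1 lay below replicate 2 in 1559 kept regions (93.9%). A weak region enters this set only if its dsCP190 enrichment was high enough for a call, so its change is set in part by the choice of regions. The median log2 change was -1.54 in decile 1, where 555 of 608 kept regions had both dsCP190 values below both mock values, and 0.11 over the 7 kept regions of decile 10.

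**Figure D3:**
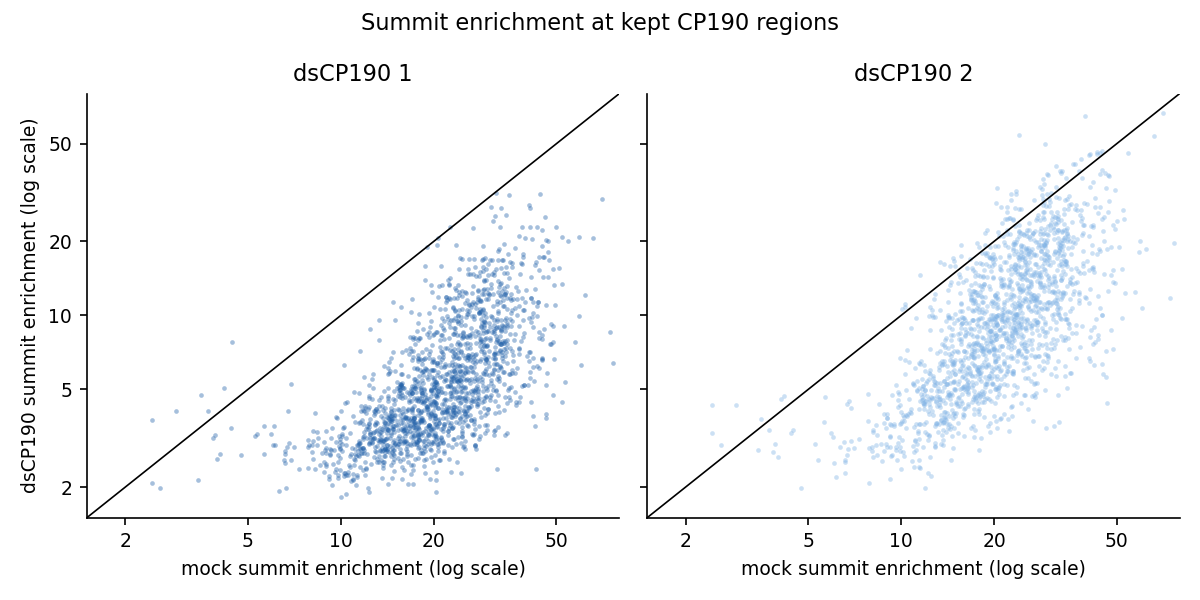
Summit enrichment at the 1661 kept regions in dsCP190 replicate 1 (left) and replicate 2 (right) against the geometric mean of the mock libraries, on log axes, with 1 point per region and the line of equality. Points lie below the line at 1652 regions in replicate 1 and 1584 in replicate 2.

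Kept regions were also named where their percentile rank of fold, from 0 for the strongest peak of a list to 100 for the weakest, differed most between treatments. This percentile moves with the length of the list, so it only served to choose regions and is not read as a change. At Chro, which encodes the interband chromodomain protein Chromator, enrichment was 13.7 and 12.9 in mock against 9.58 and 16.5 in dsCP190, with a log2 change of -0.08. Atg8a, an autophagy gene, had 12.7 and 10.4 in mock against 7.18 and 14.6 in dsCP190, and the region at lwr, the SUMO-conjugating enzyme gene, which also lies at an end of the GATA cofactor gene ush, had 17.6 and 12.3 in mock against 11.4 and 17.1 in dsCP190. In all 3 regions replicate 1 was below both mock values, while replicate 2 was above both at Chro and Atg8a and between them at lwr. The region at Rbf, a retinoblastoma-family gene, on X from 796368 to 797063, was weak in mock and was the only region named here with both dsCP190 values above both mock values. Its enrichment was 2.52 and 2.37 in mock against 3.74 and 4.33 in dsCP190, from 48, 58, 53 and 38 fragments. The summits lay at 796673 and 796879 in mock and at 796756 and 796900 in dsCP190, so these values were read at different places. At a stronger kept region by an end of the same gene, enrichment was 17.6 and 16.1 in mock against 4.90 and 5.70 in dsCP190. At jing, a zinc-finger gene, it was 3.92 and 3.17 in mock against 4.75 and 3.80 in dsCP190, and these groups overlapped.

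The kept regions with the opposite shift of percentile had low enrichments in both dsCP190 libraries. At Csk, the gene of a kinase that restrains Src, on 3R from 11650353 to 11651173, enrichment was 12.5 and 11.5 in mock against 2.24 and 1.99 in dsCP190. At DIP-beta, a cell-surface immunoglobulin protein gene, on X from 21421278 to 21422954, it was 33.6 and 25.7 in mock against 3.95 and 3.48 in dsCP190. At Mec2, a stomatin-like gene, it was 20.5 and 15.5 in mock against 3.24 and 2.82 in dsCP190. BNIP3, a mitophagy gene, had 13.2 and 11.8 in mock against 2.48 and 2.22 in dsCP190, and beta-Man, a beta-mannosidase gene, had 10.5 and 11.4 in mock against 2.14 and 2.42 in dsCP190. These 5 regions were chosen for the largest fall in rank, so low dsCP190 values and a gap between the groups follow in part from that choice. Their log2 changes ran from -2.99 to -2.27.

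Kept regions were also narrower. Their median width was 1149 and 1184 bp in mock and 520 and 736 bp in dsCP190, a ratio of 0.538, and in 1556 of them (93.7%) both dsCP190 peaks were narrower than both mock peaks. The widest reproducible region at a named gene, the glucosidase gene GCS1 on X from 11347509 to 11351559, had peaks of 4051 and 3965 bp in mock and of 482 and 696 bp in dsCP190, with enrichments of 18.3, 18.8, 2.90 and 4.86. The region at ATPsynC, a subunit gene of the mitochondrial ATP synthase, had peaks of 3371 and 3653 bp in mock and of 644 and 2358 bp in dsCP190, with enrichments of 38.3, 23.7, 12.3 and 29.7. At mtSSB, which encodes the single-strand binding protein of mitochondrial DNA, peaks were 3825 and 1895 bp wide in mock and 945 and 1530 bp in dsCP190. In all 3 regions both dsCP190 peaks were narrower than both mock peaks. At GCS1 each dsCP190 peak took up a small part of the region. Its replicate 1 summit lay apart from those of the mock libraries and replicate 2, so the 2.90 was read at another place.

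The summit stayed near the mock summit where a region was kept. The median distance between the mock summits of a kept region was 13 bp. It was 28 bp from either mock library to dsCP190 replicate 1, 20 and 21 bp to replicate 2, and 30 bp between the dsCP190 replicates. Summits lay within 50 bp of each other in 91.0% of kept regions for the mock pair, in 68.6% to 79.9% for the 4 pairs of a mock and a dsCP190 library, and in 68.5% for the dsCP190 pair. The median distance between treatments was thus no larger than that between the dsCP190 replicates. Summits over 200 bp apart were found in 5.54% and 6.02% of kept regions between the mock libraries and dsCP190 replicate 1, in 3.07% and 3.25% with replicate 2, and in 3.97% for the dsCP190 pair.

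The order of regions was shared more closely within a treatment than between treatments for the strongest peaks. Of the 500 strongest peaks of a list, 70.6% overlapped one of the 500 strongest of the other list in the mock pair and 82.6% in the dsCP190 pair, against 48.0% to 57.6% in the 4 mixed pairs. Over the 2047 strongest peaks of each list, the shares were 89.7% for the mock pair, 73.4% for the dsCP190 pair and 65.1% to 78.4% for the mixed pairs, so at that length the dsCP190 pair did not stand apart. As a description over regions called in both lists, the Spearman correlation of ranks was 0.953 over 7356 regions of the mock pair, 0.868 over 1692 of the dsCP190 pair, and 0.672 to 0.774 over 1791 to 2952 of the mixed pairs. The ranks of a pair share the background and base composition of each region.

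Regions called after dsCP190 but in neither mock library were few. There were 225, of which 162 were in replicate 1 only, 39 in replicate 2 only and 24 in both. The last count rests on what counts as shared: it was 5 with a −log10 q of at least 10 in every list. With lists of equal length it was 119, and it was 754 when peaks had to overlap by 50% of each. Lists of equal length leave out weaker mock peaks, and a narrow peak inside a wide mock peak fails the 50% rule. Both larger counts therefore include places that were called in mock. The first of these 24 lay at Vsx1 and E5, which encode homeodomain proteins, Psc, a Polycomb group gene, caup, an Iroquois homeodomain gene, and noc, a zinc-finger gene. At Vsx1, on X from 5593878 to 5594283, enrichment was 6.55 and 3.65 in dsCP190, from 49 and 21 fragments. At E5 it was 4.05 and 4.13, at caup 2.98 and 4.15, and at noc 3.81 and 3.04. At Psc it was 3.65 and 3.30. Apart from Vsx1 in replicate 1, all of these values lay below the median of their list, 4.19 and 5.31, and the peaks were 298 to 486 bp wide.

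CLAMP, a zinc-finger protein that recognises GA-rich sequence, was used only as a mark on these regions, through the 3655 regions called by both CLAMP mock lists. Overlap with such a region was found in 20.6% of all reproducible regions. The share was 12.2% of the 4295 lost regions, 23.8% of those called in replicate 2 only, 37.7% of the kept ones and 48.3% of the 120 called in replicate 1 only. Among the 24 regions called only after dsCP190 it was found in 23, the 5 named above included, and among the 225 called in any dsCP190 list but in no mock list in 156 (69.3%). In decile 10 it was found in 28 of the 36 regions called in a dsCP190 list (77.8%, 61.9 to 88.3) and in 97 of the 700 lost ones (13.9%, 11.5 to 16.6). The weak Rbf region and the jing region lie in that decile, and both overlapped CLAMP. Of the 14 kept regions whose log2 change was above 0, 9 overlapped CLAMP. The part of CLAMP in these calls was not tested, and the mock CP190 strength of overlapping and other regions differs.

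Retention also differed by where the summit lay. Each region was placed by its mean mock summit against protein-coding genes only. It lay at 2 or more gene ends when the summit was within 250 bp of the annotated ends of at least 2 genes. Other regions lay at 1 gene end, inside a gene or between genes. A region at a noncoding gene, such as that at Uhg5, could thus count as between genes. The annotation gave no strand, so starts and stops of genes were not separated. Within the strongest tertile of mock rank, dsCP190 replicate 1 called 73.3% of 439 regions at 2 or more gene ends and 67.0% of 857 at 1 end, against 49.4% of 622 inside genes and 51.9% of 534 between genes. In replicate 2 these shares were 95.7%, 90.0%, 74.4% and 75.3%. In both replicates the Wilson intervals of the gene-end classes lay above those of the other classes, for example 63.8% to 70.0% at 1 end against 45.4% to 53.3% inside genes in replicate 1. Median enrichment of these regions in mock replicate 1 was 19.4 at 2 or more ends, 21.4 at 1 end, 21.1 inside genes and 23.1 between genes, and its part in the retention was not tested. In the middle tertile replicate 1 called 11.6%, 10.4%, 8.30% and 5.23%, and the intervals at 1 end (8.52% to 12.6%) and inside genes (6.26% to 10.9%) overlapped. Replicate 2 called 42.5%, 38.7%, 21.8% and 15.7%. The weakest tertile had another order, with 0.896%, 2.71%, 4.13% and 2.03% in replicate 1. Of the 736 strongest regions, 1 of 91 at 2 or more gene ends (1.10%) was lost, 15 of 258 at 1 end (5.81%), 14 of 186 inside genes (7.53%) and 17 of 201 between genes (8.46%).

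**Figure D4:**
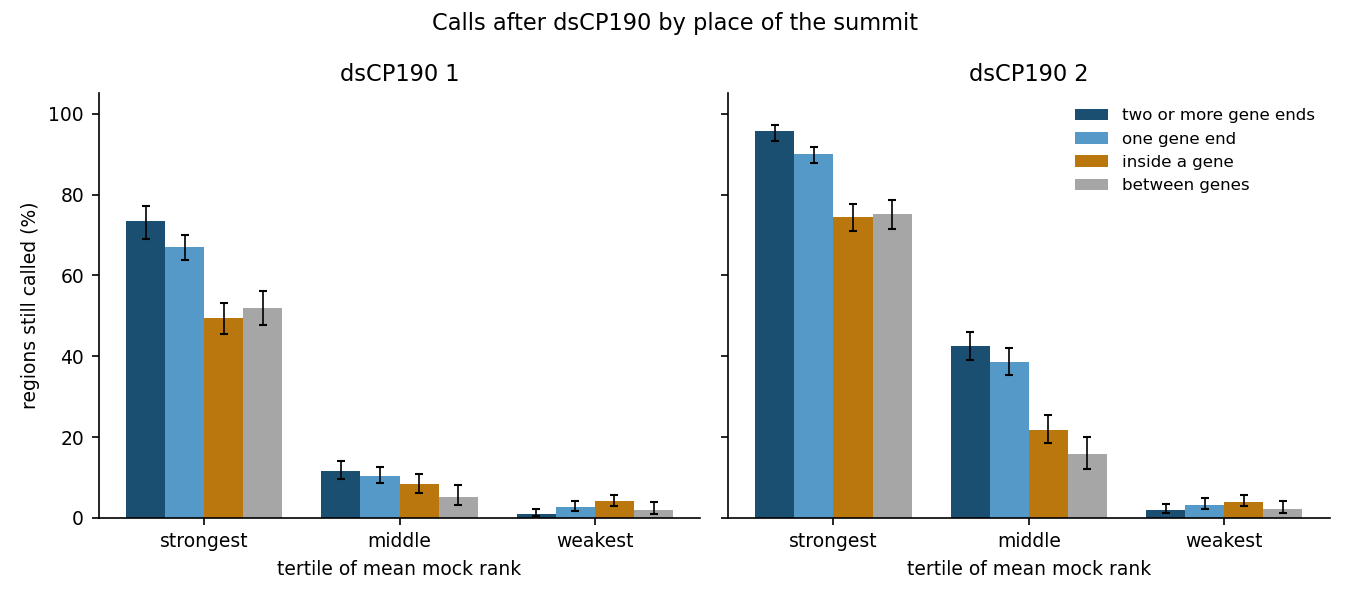
Share of reproducible mock regions still called in dsCP190 replicate 1 (left) and replicate 2 (right), in %, by tertile of mock rank and by the place of the summit. Bars carry 95% Wilson intervals; in the strongest tertile the gene-end classes stand at 73.3% and 67.0% in replicate 1, above the 49.4% inside genes and 51.9% between genes.

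Where a region was kept, the change was of similar size in all 4 places. The median log2 change of kept regions was -1.66 at 2 or more gene ends, -1.64 at 1 end, -1.63 inside genes and -1.57 between genes. Among the large chromosome arms, replicate 1 called from 21.7% of 1328 regions on 2L to 26.5% of 1373 on X, and replicate 2 from 35.9% on 2L to 41.7% on X. Chromosome 4, with 36 regions, had 30.6% and 33.3%. The median log2 change of kept regions lay between -1.70 on 3L and -1.55 on X among the large arms, and was -1.96 over 10 kept regions on chromosome 4.

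Regions whose neighbour was called were called somewhat more often themselves. The nearest reproducible region lay at a median of 4534.5 bp. For regions with a neighbour within 2000 bp, replicate 1 called 23.0% of 187 when the neighbour was called and 14.5% of 1038 when it was not. Replicate 2 called 36.7% of 332 and 24.1% of 893. At 2000 to 5000 bp the shares were closer, at 26.8% and 22.0% in replicate 1 and 44.9% and 38.1% in replicate 2, and at 5000 to 20000 bp they were 33.6% and 26.4%, and 50.0% and 40.7%. At distances over 20000 bp, the corresponding shares were 35.3% and 25.8% in replicate 1 and 47.6% and 35.0% in replicate 2, so the gap did not shrink steadily with distance. Mock strength was higher beside a called neighbour at every distance in both replicates, except in replicate 1 beyond 20000 bp. The median mock percentile in replicate 1 was 57.5 beside a called neighbour and 60.0 beside an uncalled one within 2000 bp. At 2000 to 5000 bp it was 45.0 and 49.5, at 5000 to 20000 bp 35.6 and 42.1, and beyond 20000 bp 43.2 and 40.9. In replicate 2 it was 56.9 and 61.2 within 2000 bp, and 45.4 and 50.4 at 2000 to 5000 bp. At 5000 to 20000 bp it was 36.5 and 44.2 there, and beyond that 37.3 and 46.0. Its part in the difference was not tested.

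At the level of genes, CP190 was taken as bound when a reproducible region's mean mock summit lay within 500 bp of either end. This held for 6886 of 15870 protein-coding and lncRNA genes (43.4%). Of the bound genes, 1827 (26.5%) had a kept region, 3478 (50.5%) had lost every region, and the other 1581 (23.0%) lay in between, with a call in a dsCP190 list but no region called in both. These shares are the background for the gene groups below. Each group with at least 5 bound genes is given with the median mock percentile of its strongest regions, which was 45.3 over all bound genes. Since 1 region can lie at the ends of neighbouring genes, genes were not counted as independent.

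Genes of CP190 and its partners in insulators were mostly bound. Among 22 of them, Cp190 included, 16 were bound, of which 3 had a kept region, 4 a call in 1 dsCP190 list and 9 had lost all regions (median mock percentile 39.4). The kept ones were pzg, which encodes a zinc-finger protein of interbands, su(Hw), the DNA-binding protein of the gypsy insulator, and Chro. At su(Hw), on 3R from 14307372 to 14309390, enrichment was 20.5 and 20.7 in mock against 2.80 and 10.0 in dsCP190. At pzg it was 26.6 and 23.8 in mock against 4.08 and 7.40 in dsCP190. In both genes all dsCP190 values lay below all mock values. CTCF, which encodes a DNA-binding insulator protein, had 21.8 and 16.2 in mock and 4.82 in dsCP190 replicate 2, and pita, another zinc-finger partner, had 18.4 and 19.3 in mock and 2.78 in replicate 2. Neither was called in replicate 1. The lost ones included mod(mdg4), a BTB protein gene of the gypsy insulator, and Ibf1, ZIPIC, dwg and insv. The Cp190 gene itself, on 3R from 15274696 to 15275748, had a region of middling strength with enrichments of 8.32 and 8.41 in mock and 3.61 in dsCP190 replicate 2, from 96, 132 and 26 fragments, and no call in replicate 1.

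Among 12 genes of cohesin and condensin, the ring complexes that shape chromosomes, 10 were bound. Of these, 3 were kept (glu, pds5 and wapl) and 7 lost, among them SMC1 and SMC3, the cohesin core genes (median mock percentile 50.6). At wapl, which encodes the cohesin release factor, enrichment was 12.8 and 12.8 in mock against 3.35 and 2.90 in dsCP190. At pds5, its cofactor, it was 13.8 and 13.7 in mock against 2.84 and 5.42 in dsCP190. Both genes had close mock values and dsCP190 values well below them.

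The Polycomb and trithorax groups, which hold genes silent and active, had 12 of 19 and 14 of 20 genes bound. Polycomb genes were kept in 4 cases and lost in 5 (median mock percentile 41.0). Trithorax and remodelling genes were kept in 3 cases and lost in 2, while 9 kept a call in 1 dsCP190 list (median mock percentile 37.0). At Pc, the chromodomain subunit that reads methylated histone H3, on 3L from 21317536 to 21318665, enrichment was 33.3 and 35.9 in mock against 7.62 and 9.64 in dsCP190. At trx, a histone methyltransferase gene, on 3R from 14286394 to 14287619, it was 22.0 and 19.9 in mock against 10.6 and 15.5 in dsCP190. Pc started higher than trx and ended lower in both replicates. At kis, a chromodomain helicase gene, it was 22.3 and 19.2 in mock against 4.94 and 8.70 in dsCP190.

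All 10 genes listed for dosage compensation, which equalises X-linked expression in males, were bound in this line labelled as female. Of these, 3 were kept, 6 lost and 1, msl-2, had a call in replicate 2 only (median mock percentile 51.5). At roX2, a noncoding RNA of the complex, on X from 11579508 to 11581408, enrichment was 33.1 and 34.6 in mock against 12.1 and 16.9 in dsCP190. At roX1 it was 22.1 and 24.4 in mock against 7.05 and 12.0 in dsCP190. Both noncoding RNA genes had dsCP190 values below mock values in each replicate. At Sxl, the female sex-determination switch that represses msl-2, it was 25.3 and 12.8 in mock against 8.07 and 16.4 in dsCP190, and these groups overlapped.

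Many cytosolic ribosomal protein genes kept a CP190 call in both dsCP190 lists. Of 88, 74 were bound and 42 of these (56.8%) had a kept region, against 26.5% of all bound genes, while 18 (24.3%) had lost all regions, against 50.5%. Their median mock percentile was 26.2, so their regions were also stronger than the 45.3 of all bound genes. The part of strength in this share was not tested. At RpL7A, on X from 6532822 to 6534553, enrichment was 38.6 and 30.4 in mock against 12.4 and 16.7 in dsCP190. At RpS14a it was 39.0 and 28.8 in mock against 11.6 and 15.2 in dsCP190, and at RpL37A 31.9 and 44.6 in mock against 9.02 and 11.3 in dsCP190. At these 3 genes every dsCP190 value lay below every mock value. The median log2 change over the 42 genes was -1.49, beside -1.65 over all genes with a kept region. RpS14a has a near-identical neighbouring copy, so its value is uncertain.

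Mitochondrial ribosomal protein genes kept a call less often than the cytosolic ones. Of 73, 65 were bound, 12 (18.5%) were kept and 42 (64.6%) lost, beside 26.5% and 50.5% of all bound genes. Their median mock percentile was 51.5, so their regions were weaker than the 45.3 of all bound genes. The part of strength in these shares was not tested. At mRpL13 enrichment was 31.8 and 22.6 in mock against 13.2 and 21.5 in dsCP190, while at mRpL27 it was 27.6 and 26.8 in mock against 3.45 and 5.31 in dsCP190. The 2 genes had similar mock values and differed in dsCP190 in both replicates.

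Among 28 translation initiation factor genes, 26 were bound, with 8 kept and 8 lost (median mock percentile 43.9). At eIF4A, the RNA helicase gene of initiation, enrichment was 24.5 and 22.6 in mock against 4.87 and 9.85 in dsCP190. At eIF4E1, which encodes the cap-binding protein, it was 29.5 and 20.5 in mock against 5.21 and 12.6 in dsCP190. Aminoacyl-tRNA synthetase genes, which charge tRNAs, were all 18 bound, with 4 kept and 12 lost (53.4). At HisRS it was 34.8 and 25.5 in mock against 7.56 and 21.5 in dsCP190. In these 3 genes every dsCP190 value lay below every mock value.

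Proteasome subunit genes were bound in 32 of 48 cases, with 9 kept and 13 lost (median mock percentile 42.6). At Rpt6, an ATPase subunit gene, on X from 21315425 to 21316464, the summit held 267 and 296 fragments in mock against 38 and 60 in dsCP190, and the log2 change of enrichment was -2.52. Both dsCP190 values lay far below mock there. At Prosbeta2R2 enrichment was 25.1 and 21.8 in mock against 6.96 and 15.4 in dsCP190. Genes of general transcription factors and Mediator, the machinery that loads RNA polymerase II, were bound in 36 of 39 cases, with 6 kept and 23 lost, at a weaker median mock percentile of 56.8. At Taf1, the largest subunit gene of TFIID, it was 21.4 and 18.8 in mock against 5.47 and 9.63 in dsCP190. At TfIIEalpha it was 28.1 and 21.5 in mock against 7.14 and 14.0 in dsCP190.

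Of 28 genes of the cell cycle and of replication, 23 were bound, with 11 kept and 6 lost, at strong regions (median mock percentile 29.8). At stg, the Cdc25 phosphatase gene that starts mitosis, enrichment was 31.2 and 25.5 in mock against 4.06 and 9.90 in dsCP190. At CycB, a mitotic cyclin gene, it was 39.9 and 23.4 in mock against 4.52 and 7.27 in dsCP190. At dup, the licensing factor Cdt1, it was 26.5 and 15.6 in mock against 1.90 and 5.01 in dsCP190. At these 3 genes the dsCP190 values were far below mock, with log2 changes of -2.15, -2.41 and -2.72. At Mcm7, a subunit gene of the replicative helicase, it was 26.7 and 21.6 in mock against 9.29 and 17.3 in dsCP190, a smaller log2 change of -0.92.

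Signalling genes were bound in 21 of 31 cases, with 13 kept (61.9%, beside 26.5% of all bound genes) and 5 lost. Their median mock percentile was 31.3, stronger than the 45.3 of all bound genes, and the part of strength was not tested. At Egfr, the epidermal growth factor receptor gene, enrichment was 40.3 and 30.5 in mock against 5.80 and 9.26 in dsCP190. At N, the Notch receptor gene, on X from 3134005 to 3135457, it was 29.5 and 29.0 in mock against 17.1 and 49.7 in dsCP190. At ptc, the Hedgehog receptor gene, it was 23.5 and 23.0 in mock against 6.17 and 17.8 in dsCP190. The dsCP190 replicates at N lay on either side of the mock values, so its log2 change of -0.01 joins values that differ. The Egfr and ptc values were below mock in both replicates.

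**Figure D5:**
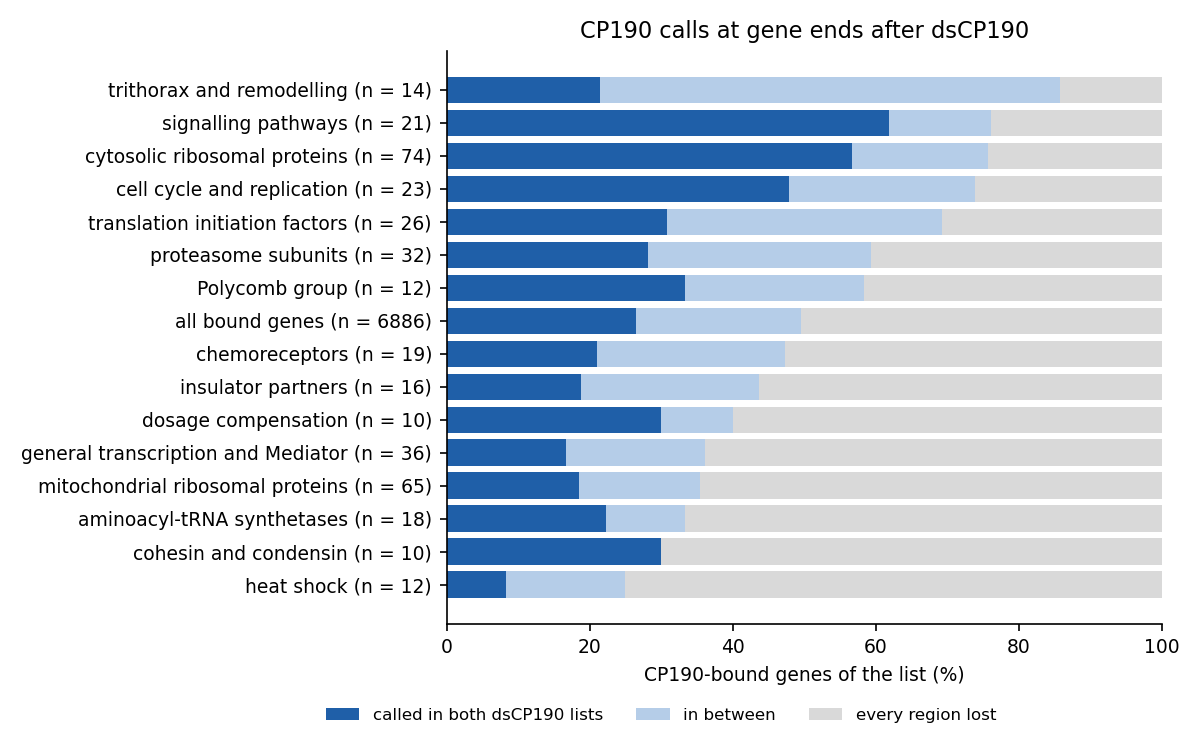
CP190-bound genes of each list with at least 10 bound genes and of all bound genes, as the % that had a kept region, a call in 1 dsCP190 list (in between) or no call left. Signalling, cytosolic ribosomal protein and cell cycle genes have 61.9%, 56.8% and 47.8% kept, beside 26.5% over all 6886 bound genes, and heat shock genes have 8.33%. Neighbouring genes can share a region, as do the heat shock genes CG4456, Hsp22 and Hsp67Bc.

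Heat shock genes lost CP190 calls in 9 of 12 bound cases, out of 20 listed (median mock percentile 51.9). The kept one was DnaJ-1, a co-chaperone gene, with enrichments of 37.4 and 27.8 in mock against 10.2 and 20.7 in dsCP190. Hsc70-4, the constitutive chaperone gene, had 8.79 and 8.31 in mock and no call after dsCP190. Hsp70Ba belongs to a family of near-identical copies, so its loss is uncertain. Ecdysone response genes were bound in 7 of 14 cases, with 3 kept and 3 lost (34.8). At ftz-f1, a nuclear receptor gene, on 3L from 18800028 to 18802128, enrichment was 46.0 and 40.3 in mock against 9.94 and 17.8 in dsCP190. At EcR, the ecdysone receptor gene, it was 15.1 and 15.3 in mock against 2.93 and 9.61 in dsCP190, so both nuclear receptor genes had dsCP190 values below mock values.

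Genes of particular tissues were bound in unequal shares. Of 12 hemocyte genes, 5 were bound (41.7%), near the 43.4% of all genes. Of these 5, 3 were kept and none was lost (median mock percentile 24.9). Kc167 cells are known to resemble hemocytes, but the bound share did not set this list apart. At srp, the GATA factor gene of blood cells, enrichment was 25.9 and 23.9 in mock against 8.51 and 21.4 in dsCP190. At Pvr, a receptor tyrosine kinase gene of hemocytes, it was 33.8 and 24.8 in mock against 10.6 and 21.5 in dsCP190. At both genes the replicate 2 values were close to the lower mock value and the replicate 1 values well below it. Of 19 segmentation genes, 2 were bound, hh and ci, and both were lost. Of 12 genes of the Hox complexes, bcd was kept, Ubx lost, and Scr, at 5.01 and 4.33 in mock, was called in replicate 2 only. Neuronal genes were bound in 2 of 11 cases and muscle genes in 1 of 11. Of 10 germline genes, 5 were bound, of which 3 were lost and none was kept (median mock percentile 46.4). Chemoreceptor genes were bound in 19 of 179 cases, with 4 kept and 10 lost (median mock percentile 29.3). Cuticle protein genes were bound in 7 of 70, with 1 kept and 5 lost (44.2). Strong regions of both groups went both ways. Or43a, an odorant receptor gene, had 34.1 and 26.2 in mock against 6.80 and 11.4 in dsCP190, whereas Gr98d, with 35.8 and 30.9 in mock, was lost. Cpr97Ea, a cuticle protein gene, had 28.4 and 23.7 in mock against 10.4 and 16.4 in dsCP190, and Cpr62Ba, with 35.4 and 27.9 in mock, was lost.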

How the data were processed

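ChIP-seq peak lists of 4 CP190 libraries were used, and 2 CLAMP mock lists for overlap. Their coordinates are on dm6, and MACS2 2.1.1.20160309, Bowtie2 2.3.4.1, Picard 2.18.9, deepTools 3.0.2 and cutadapt 1.16 are named, per the submitters' processing notes. Which control library and which settings were used for calling is not given in the sources used here. The authors deposited for every peak a fold enrichment (a ratio), a −log10 p, a −log10 q, a score and the offset of the summit, in 1 file per sample.

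Fragments and local background at each summit were recovered from the deposited fold, taken as fragments plus 1 over background plus 1, and the −log10 p of a Poisson tail. Whole fragments within 0.001 came out for all peaks but 1. The recovery was tested on simulated data. Regions, ranks, Wilson intervals and exact permutation tests were made in Python 3.11.15 with numpy 2.4.6, pandas 2.3.3 and scipy 1.17.1. Coordinates are 1-based. Read totals were not used here. Backgrounds were compared at the summits of regions called in both libraries of a pair. The median ratio of dsCP190 replicates 1 and 2 was 0.917 and 0.728 to mock replicate 1, and 0.659 and 0.530 to mock replicate 2.

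Genes came from a RefSeq table of the same assembly without strand. Of 343 listed symbols 338 matched, and ribosomal, proteasome, chemoreceptor and cuticle genes were taken by symbol. Named genes were the first by mean mock rank that carried a symbol (CG and CR numbers left out): 10 kept, 10 lost, 5 and 3 called in replicate 2 or 1 only, 5 called after dsCP190 only, 5 each whose rank moved most up or down, the 3 widest, up to 4 bound members of each of 23 lists, and Cp190. The values of 1 such gene are not reported here. The other lost or kept members named were chosen after their calls were seen. The members and lists were chosen with earlier results of these data known. The planned motif search was not run, and gene ends took the place of gene starts. Alternatives were other thresholds, overlaps, list lengths, windows and left-out libraries. Same-numbered mock and dsCP190 libraries did not deviate together (correlation -0.10), so replicate numbers were not used to pair them.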

Additional observations from a re-analysis of the deposited data

How the results depend on the processing

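Of 98 alternative values of the main results, 79 were rated the same, 19 were not, and 0 reversed. A ratio of dsCP190 to mock was rated the same if it stayed below 1, whatever its size. Counts had to stay within 1.5 times, and other values within the spread or interval of the main value. Only the ratios and the log2 change could be rated as reversed, so the 0 covers these alone. With a −log10 q of at least 10 in every list, kept regions numbered 1036, of which 906 lay lower in both dsCP190 libraries, 5 regions were called only after dsCP190, and the mean of the 4 median summit distances was 18.875 bp, beside 24.25 bp. Leaving out 1 library at a time gave 1665 to 2941 kept regions, 1525 to 2792 of them lower, 26 to 186 regions called only after dsCP190 and summit distances of 24 to 30 bp. The highest counts of kept regions, 2941 and 2792, came without dsCP190 replicate 1, and the 186 without dsCP190 replicate 2, where a call in 1 library is enough by construction. The count called only after dsCP190 was 63 without replicate 1. With lists of equal length, 306 regions were lost, 259 were in replicate 2 only and 119 only in the shortened dsCP190 lists. With 50% reciprocal overlap, 673 were kept. By that rule 754 peaks of dsCP190 replicate 1 matched replicate 2 but no mock peak, and with summits within 100 bp 96 did. A narrow peak inside a wide mock peak fails the 50% rule. What share of these counts arose so was not tested. Over the 500 strongest peaks, mock and dsCP190 lists shared 53.3% on average, beside 71.8%, and in the strongest tertile of kept regions the summit distance was 18.75 bp. With a 100 bp window, retention at gene ends was 23.6% and 42.1%, beside 26.4% and 45.1%. With a replicate block, the peak number ratio was 0.324, the width ratio 0.690 and the log2 change -1.64, with no change of call. Of 127 named regions, 123 had the same call at a −log10 q of at least 3 and 89 at 10. The alternatives for the log2 change, the lower regions and the named regions were chosen after seeing the data. With 2 libraries a group, the exact permutation test cannot go below 0.333.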
